A study of Mus musculus with 31 samples.

Results

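The genes described here are 9 genes of the circadian clock (Arntl, Clock, Npas2, Cry1, Per1, Per2, Per3, Nr1d1 and Tef) and Dbp, an output of the clock, in mouse liver. Members were all probes annotated with 1 of these 10 symbols. They are 11 probes, 1 for each gene and 2 for Tef, of the 21765 probes that had a value on every array, which carry 15095 gene symbols. All 11 were measured on all 31 arrays, and each was annotated with 1 gene.

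The circadian clock is a feedback loop of transcription factors that runs with a period of about a day in nearly every cell. The protein of Arntl (also called BMAL1) pairs with CLOCK or NPAS2 and binds E-boxes in the promoters of Per and Cry genes and of Dbp, and the PER and CRY proteins then inhibit that pair. A second loop runs through Nr1d1 (REV-ERB alpha), which represses Arntl through ROR elements, and DBP and TEF are related activators that bind D-boxes. In mouse liver Arntl and Dbp are known to peak at opposite times of day, and feeding time sets the phase of the liver clock.

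The study measured gene expression in livers of BXD mice, inbred strains bred from C57BL/6J and DBA/2J parents. Each of 31 strains (labelled BxD/TyJ strain 1 to strain 42, with gaps in the numbering) gave 1 2-colour array. For each strain, total RNA from the whole livers of 3 male mice, 8 weeks old, was pooled and labelled with Alexa Fluor 647. The reference, the same on all arrays, was a pool of 9 whole livers of male C57BL/6J mice, 8 weeks old, labelled with Alexa Fluor 555 together with spike-in RNA. No array had the dyes swapped, so a difference of all strains from the reference and a dye effect cannot be told apart. For the hour of liver collection and the feeding state, no value is given in the sources used here. With 1 array per strain there is no spread within a strain, so each test below measures the spread over strains, array error included. All ratios share 1 reference pool, so an error of that pool shifts every strain alike. The tests of means leave it out, and their p-values do not measure it.

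The deposited values were ratios, read here as the log2 of strain over reference; the base and direction of the ratio are not stated. With the direction turned, every sign of a mean below would turn, while no correlation would change. Ratios give no level, so the tissue could not be checked by the level of its markers. The sorted values of every array were the same to within 0.000256, from -3.845 to 3.652. The arrays of strains 23, 28, 40 and 42 stood apart: their median correlation with the other arrays was 0.0568 to 0.37, while that of the other 27 arrays was 0.57 or more. Probes listed near each other also shared variation, with a mean r over strains of 0.103 for neighbouring identifiers, 0.105 at a distance of 24 and 0.0042 at a distance of 36.

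Promoter sequences of 9 of the 10 genes were matched by symbol in RefSeq (GRCm38.p6), as 14 windows from 250 bases before a start to 50 after it; a window for Per2 was not used here. The windows were searched on both strands for 3 motifs of clock factors: the E-box CACGTG, the D-box TTATGTAA or TTACGTAA, and the ROR core AGGTCA. Of all 32851 windows in the table, 7.15% held the E-box, 1.06% the D-box and 16.3% the ROR core. The windows printed here belong to Dbp, Per1 and Tef, whose probes make up the pairs with the strongest correlations, to Per3, the member with D-boxes, to Cry1, whose probe differed most from the reference, and to Arntl. They give the 250 bases before the start, 5′ to 3′ on the gene's strand, with motif matches in capitals. For Arntl a stretch from inside the transcript is printed in their place, and 28 is its length, not its distance from the start.
Dbp (chr7:45704997-45705246, plus strand): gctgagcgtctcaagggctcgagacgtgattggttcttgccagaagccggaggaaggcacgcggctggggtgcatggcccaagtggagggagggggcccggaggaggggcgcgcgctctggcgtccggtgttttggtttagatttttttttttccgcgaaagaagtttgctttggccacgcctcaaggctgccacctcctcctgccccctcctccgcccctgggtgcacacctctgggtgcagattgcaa
Per1, upstream start (chr11:69098699-69098948, plus strand): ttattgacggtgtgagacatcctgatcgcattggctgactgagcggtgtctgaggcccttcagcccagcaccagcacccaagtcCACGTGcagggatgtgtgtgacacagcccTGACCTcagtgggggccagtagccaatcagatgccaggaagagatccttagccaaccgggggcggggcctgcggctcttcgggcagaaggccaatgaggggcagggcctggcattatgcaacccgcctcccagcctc
Tef, upstream start (chr15:81802423-81802672, plus strand): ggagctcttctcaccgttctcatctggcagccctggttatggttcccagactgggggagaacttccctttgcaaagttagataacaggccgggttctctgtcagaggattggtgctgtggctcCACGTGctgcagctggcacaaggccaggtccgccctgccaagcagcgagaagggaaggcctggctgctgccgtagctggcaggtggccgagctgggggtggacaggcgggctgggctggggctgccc
Tef, downstream start (chr15:81811164-81811413, plus strand): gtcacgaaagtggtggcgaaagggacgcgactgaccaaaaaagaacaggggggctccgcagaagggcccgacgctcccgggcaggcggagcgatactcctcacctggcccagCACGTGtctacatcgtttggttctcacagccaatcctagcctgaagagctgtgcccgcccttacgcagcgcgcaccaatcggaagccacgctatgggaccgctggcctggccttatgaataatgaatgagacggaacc
Per3 (chr4:151044666-151044915, minus strand): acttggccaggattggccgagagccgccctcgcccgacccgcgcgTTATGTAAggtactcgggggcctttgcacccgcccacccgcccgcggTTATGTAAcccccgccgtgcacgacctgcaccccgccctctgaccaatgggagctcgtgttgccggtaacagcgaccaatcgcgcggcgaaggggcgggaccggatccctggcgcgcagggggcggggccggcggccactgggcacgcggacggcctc
Cry1 (chr10:85185055-85185304, minus strand): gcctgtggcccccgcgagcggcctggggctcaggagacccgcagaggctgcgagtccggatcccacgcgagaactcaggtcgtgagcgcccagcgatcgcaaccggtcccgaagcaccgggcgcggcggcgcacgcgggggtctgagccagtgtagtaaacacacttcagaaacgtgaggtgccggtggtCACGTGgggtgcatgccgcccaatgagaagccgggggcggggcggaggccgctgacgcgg
Arntl, 28 bases after its downstream start (chr7:113207531-113207558, plus strand): aggcagaaagtAGGTCAgggacggaggt
The E-box lay 166 bases before the upstream start of Per1, 60 before the start of Cry1, and 127 and 138 before the starts of Tef, counted to the first base of the match. Per3 held TTATGTAA at 205 and 158 bases before its start. The ROR core was found on the reverse strand (TGACCT) 137 bases before the upstream start of Per1 and 119 before the third start of Clock, and on the forward strand 32 bases into the Arntl transcript. The Dbp, Npas2 and Nr1d1 windows held none of these 3 motifs. A match is a run of letters in this window, and binding was not measured.

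Relative to the reference, 3 member probes were higher, 4 were lower and 4 did not pass the test of their mean over 31 strains (limma, adjusted p under 0.05 over all 21765 probes). Over all probes, 37.4% were higher and 37.6% lower by the same test, so a shift of this kind was common on these arrays. Cry1 differed most and Tef, at its probe 2820, came next, while the probes of Npas2, Per1, Nr1d1 and the other Tef probe (1961) did not pass.

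**Figure D1:**
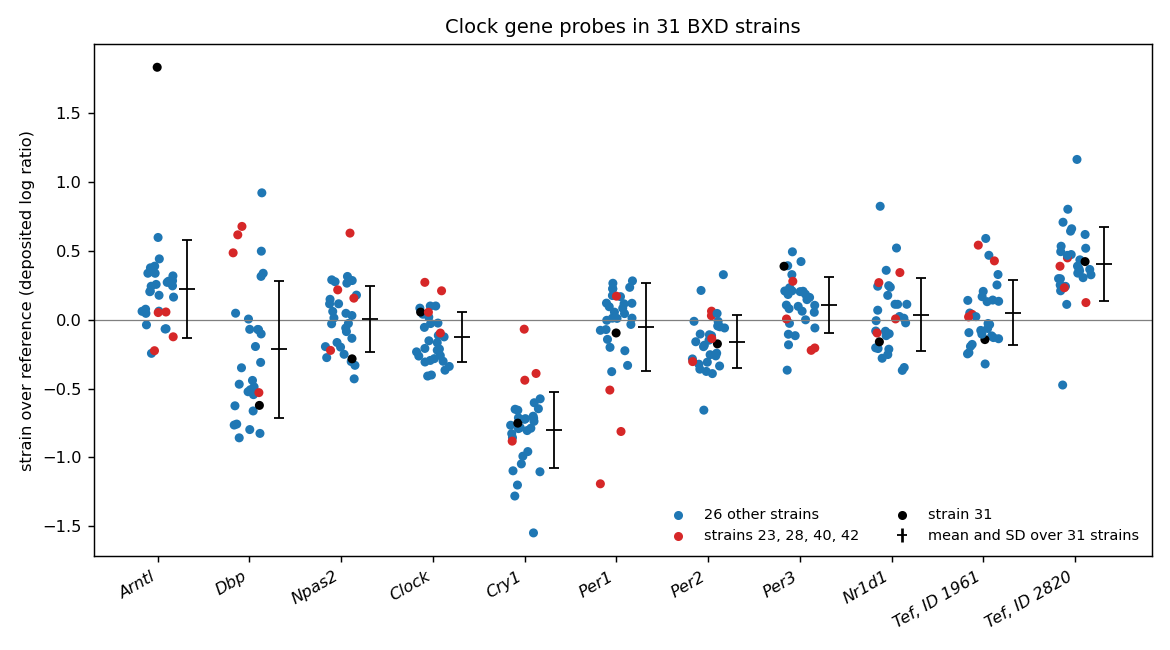
Deposited log2 ratio of strain over reference (vertical axis) for the 11 probes of the clock genes and Dbp (horizontal axis). Each point is 1 strain, with strains 23, 28, 40 and 42 in red and strain 31 in black; bars give mean and SD over 31 strains. Dbp has the largest SD, 0.50, Cry1 lies below 0 in all 31 strains, and the Arntl value of strain 31, at 1.83, lies apart from the others.

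Among the activators, the Arntl probe ran from -0.25 in strain 8 through a median of 0.21 to 1.83 in strain 31, and the next value below that was 0.59 in strain 1. It was above 0 in 25 strains, with a mean of 0.22 ± 0.36 (SD, n = 31; adjusted p = 0.0017, limma), and the mean was 0.17 without strain 31. After a correction for shifts shared by every 8th identifier on an array, the mean was 0.12 (adjusted p = 0.061). Clock, the partner of Arntl, ran from -0.41 in strain 18 through a median of -0.15 to 0.27 in strain 23. Its mean was -0.13 ± 0.18 (SD, n = 31; adjusted p = 0.0011, limma), with 22 of 31 strains below 0. Npas2, which can replace Clock in the pair, ran from -0.43 in strain 15 through a median of 0.01 to 0.63 in strain 28, and its mean was 0.00 ± 0.24 (SD, n = 31; adjusted p = 0.95, limma). With both the identifier correction and strains 23, 28, 40 and 42 left out, the Npas2 mean was -0.13 (adjusted p = 0.0058).

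Among the repressors, Cry1 ran from -1.55 in strain 32 through a median of -0.77 to -0.07 in strain 23. All 31 strains lay below the reference, and the mean was -0.80 ± 0.28 (SD, n = 31; adjusted p = 2.5e-16, limma), which is a ratio of 0.574. The 3 values nearest to 0 came from strains 23, 40 and 28, all of which stood apart by their whole arrays. Per2 ran from -0.66 in strain 15 through a median of -0.16 to 0.33 in strain 34, with a mean of -0.16 ± 0.19 (SD, n = 31; adjusted p = 0.00014, limma) and 26 strains below 0. Per3 ran from -0.37 in strain 32 through a median of 0.10 to 0.49 in strain 14. Its mean was 0.10 ± 0.20 (SD, n = 31; adjusted p = 0.013, limma), and it did not pass after the identifier correction (mean 0.06, adjusted p = 0.13). Per1 ran from -1.19 in strain 40 through a median of 0.01 to 0.28 in strain 20, with a mean of -0.06 ± 0.32 (SD, n = 31; adjusted p = 0.37, limma). Its 3 lowest strains were 40, 23 and 42, all with arrays that stood apart, and the lowest of the other 27 was -0.38. After the identifier correction the Per1 mean was -0.15 (adjusted p = 0.011, limma). Without strains 23, 28, 40 and 42 it was 0.02 (adjusted p = 0.53, limma), and with both changes -0.08 (adjusted p = 0.035, limma).

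Nr1d1, the repressor of Arntl, ran from -0.37 in strain 22 through a median of 0.00 to 0.82 in strain 11. Its mean was 0.03 ± 0.26 (SD, n = 31; adjusted p = 0.51, limma), with 16 strains above 0 and 15 below.

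Dbp, the clock output, ran from -0.86 in strain 32 through a median of -0.35 to 0.92 in strain 38. It was below 0 in 22 strains and above 0 in 9, and the mean was -0.22 ± 0.50 (SD, n = 31; adjusted p = 0.021, limma). Strains 38, 40, 23, 36, 42, 8 and 15 had the 7 highest values, 0.31 or more, and 3 of these 7 belonged to the 4 arrays that stood apart. The next value was 0.05 in strain 33. Outside those 4 arrays, strains 38, 8 and 15 had the lowest median correlations with the other arrays, 0.57, 0.67 and 0.68. Strain 36 was at 0.76. The part of array quality in the Dbp values was not tested. The distance from the highest to the lowest strain was 1.78, a 3.42-fold difference.

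Tef, a relative of Dbp, had a probe near the reference and another above it. Probe 1961 ran from -0.32 in strain 32 through a median of 0.02 to 0.59 in strain 36, with a mean of 0.05 ± 0.24 (SD, n = 31; adjusted p = 0.30, limma). Probe 2820 ran from -0.47 in strain 38 through a median of 0.39 to 1.16 in strain 2, with a mean of 0.40 ± 0.27 (SD, n = 31; adjusted p = 2.4e-09, limma). It was above 0 in 30 of 31 strains, and the exception was strain 38, the strain with the highest Dbp. The 2 probes correlated at r = -0.17 over strains, so results are given for each.

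The spread over strains placed Dbp first among the members. Its SD of 0.50 was larger than that of 92.6% of all probes, whose median SD was 0.239. Arntl followed at 0.36 (larger than 81.6% of probes) and Per1 at 0.32 (75.3%). The smallest belonged to Clock at 0.18 (19.1%), Per2 at 0.19 and Per3 at 0.20. For Arntl and Per1 the rank rested on few arrays. Without strain 31, the Arntl SD was 0.20, larger than 28.7% of probes. Without strains 23, 28, 40 and 42, the Per1 SD was 0.17 and the Dbp SD 0.45.

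Probes listed near Arntl were also high in strain 31. The probe with the next identifier, Tdp2, was at 1.89 in strain 31, while the one before it was at -0.42. Of the 99 probes within 50 identifiers of the Arntl probe, 10 lay more than 1 above their median over strains in strain 31, which is 10.1%, against 0.666% of all probes. These 10 lay at identifier differences of -47, -46, -34, -33, -23, -10, -9, 1, 24 and 48. The part of position in the Arntl value was not tested, and the correlations of Arntl named below are also given without strain 31.

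**Figure D2:**
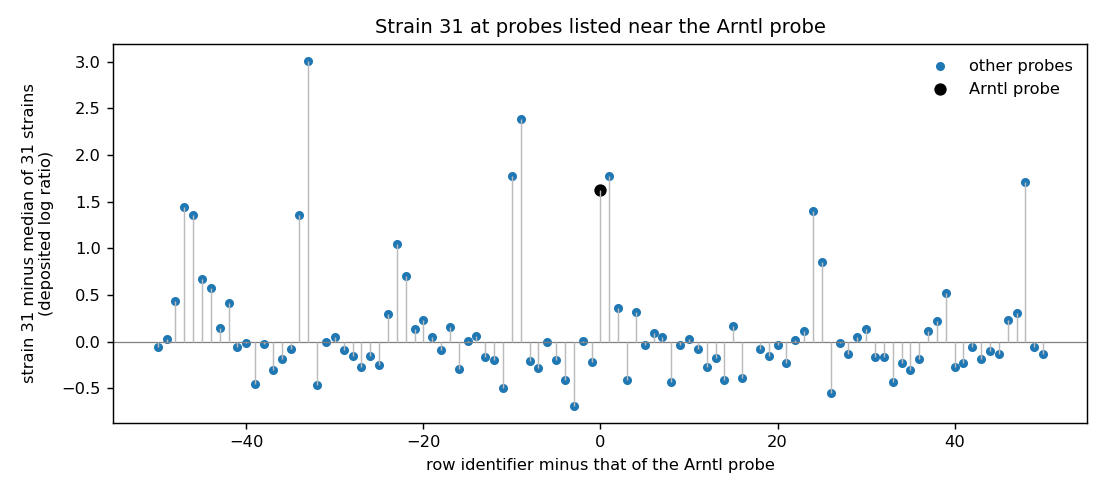
Value of strain 31 minus the median over 31 strains (vertical axis, deposited log2 ratio) for probes by the difference of their row identifier from that of the Arntl probe (horizontal axis). Each point is 1 probe and the Arntl probe is black; of the 99 others, 10 exceed 1, and Tdp2, with the next identifier, is as high as Arntl.

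Across strains, Dbp and Arntl were inversely related. Over 31 strains the Pearson correlation was r = -0.46 (permutation p = 0.0062) and Spearman's rho was -0.62 (permutation p = 0.00028; 2-sided tests, 100000 permutations). When every probe was fitted on Arntl, Dbp did not pass over all probes (adjusted p = 0.20, limma), and when every probe was fitted on Dbp, Arntl did (adjusted p = 0.024, limma). In the fit on Dbp, 16.2% of all probes correlated positively and 17.5% negatively, so a negative call was not rare. In the fit on Arntl the shares were 0.487% and 0.142%, and 349 probes had a lower r with Arntl than Dbp. By r with Dbp, 3214 probes stood below Arntl. Of the 7 strains highest in Dbp, 4 (strains 8, 15, 23 and 40) were among the 7 lowest in Arntl. Of these, strains 23 and 40 had arrays that stood apart. The median correlations of strains 8 and 15 with the other arrays were 0.67 and 0.68. Of the 9 strains with Dbp above 0, 7 had Arntl below its median. Both counts use the same values as the correlation and add no separate evidence.

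Single arrays moved this relation in both directions. Without strain 31, r was -0.62 and passed in the fit on Arntl as well (adjusted p = 0.013, limma), where 4.64% of probes were then positive and 6.02% negative. Without the 2 strains farthest from the Arntl median, r was -0.59. Without strains 23, 28, 40 and 42, r was -0.39 and rho -0.56, and the pair passed in neither fit (adjusted p = 0.47 on Arntl and 0.11 on Dbp, limma). Without those 4 and strain 31 together, r was -0.52, with adjusted p = 0.041 in the fit on Dbp and 0.15 in the fit on Arntl (limma). With the first 3 principal components of the arrays removed, r was -0.21 and passed in neither fit (adjusted p = 0.77 on Dbp, limma). Leaving out strain 23 alone gave r = -0.42 and an adjusted p of 0.051 in the fit on Dbp, the only 1 of 31 single omissions that ended that call.

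**Figure D3:**
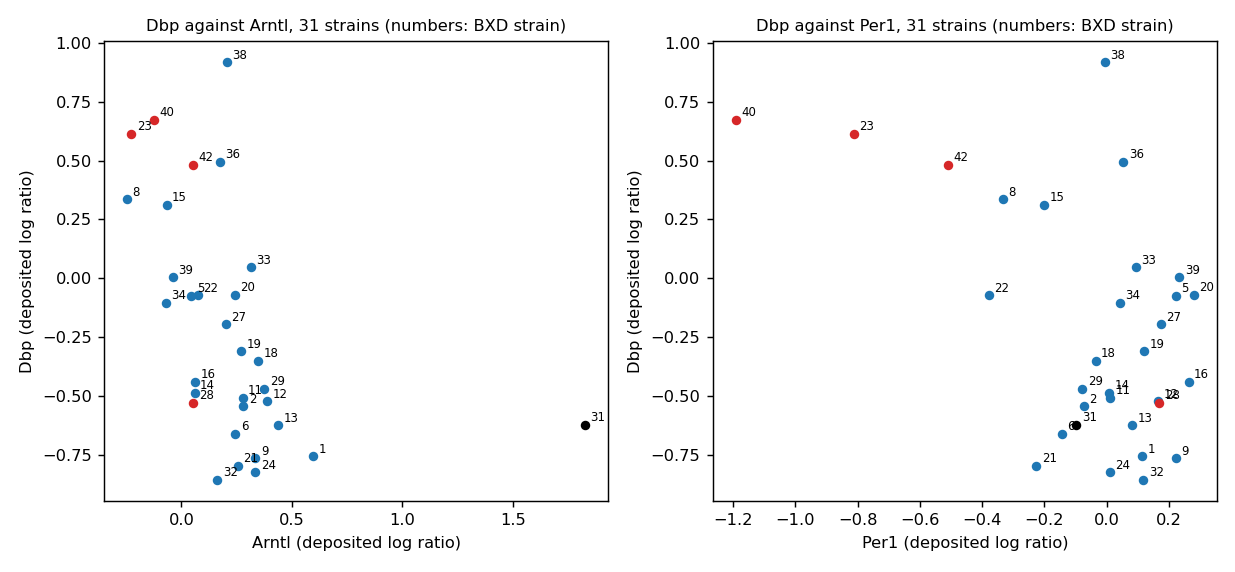
Dbp (vertical axes) against Arntl (left) and against Per1 (right), in deposited log2 ratios, 1 point per strain with its BXD number; strains 23, 28, 40 and 42 are red and strain 31 is black. Left, r = -0.46 over all strains and -0.62 without strain 31; right, r = -0.51 over all strains and -0.12 without the 4 red strains.

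Of the 55 pairs of member probes, 54 between different genes, r ran from -0.51 to 0.49 and lay within 0.3 of 0 for 45. With the first-named probe as predictor, 3 pairs passed over all probes, and with either probe as predictor 4 did. All 4 involved Dbp or Per1, whose fits called 33.7% and 33.2% of all probes. Without strain 31, 5 pairs passed, with the first-named probe or with either as predictor. On raw permutation p-values under 0.05, 8 pairs passed by Pearson's r and 4 by Spearman's rho. Without strains 23, 28, 40 and 42, no pair passed in the limma fits with either probe as predictor. No pair passed with 3 principal components removed either.

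Dbp and Per1, both targets of the E-box activators, correlated at r = -0.51 (permutation p = 0.0032) and rho = -0.25 (permutation p = 0.18). The limma fit on Dbp gave an adjusted p of 0.011, and it was lost without strain 40 (r = -0.41, adjusted p = 0.068). The 3 lowest Per1 values and 3 of the 7 highest Dbp values came from strains 23, 40 and 42, and without the 4 arrays apart r was -0.12. The Per1 fit itself called 16.7% of all probes positive and 16.6% negative over all strains, and 0 without those 4 arrays, where 1492 probes had an unadjusted p under 0.05.

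Arntl and Per1 had r = 0.26 (permutation p = 0.13) and rho = 0.20 (permutation p = 0.29), and the pair passed in neither fit (adjusted p = 0.50 on Arntl and 0.26 on Per1, limma). Without strain 31 r was 0.50 and it passed in both (adjusted p = 0.039 on Arntl and 0.022 on Per1, limma). Without strains 23, 28, 40 and 42 r was 0.01, and without those 4 and strain 31 it was 0.27 and passed in neither.

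Dbp and Tef at probe 1961 correlated at r = 0.49 (permutation p = 0.0053) and rho = 0.38 (permutation p = 0.034). The fit on Dbp gave an adjusted p of 0.021 (limma), which was lost without any 1 of strains 23, 36 and 40 (r = 0.42, 0.43 and 0.43). In the fit on that Tef probe the pair did not pass (adjusted p = 0.19, limma). Without the 4 arrays apart r was 0.36 and with 3 components removed 0.37, so its size changed less than that of Dbp and Per1. The other Tef probe gave r = -0.33 with Dbp (adjusted p = 0.14, limma), and 0.01 once the 2 strains farthest from the Dbp median were left out. Per1 and Tef at probe 1961 gave r = -0.48 (permutation p = 0.007) and rho = -0.34 (permutation p = 0.062). The adjusted p was 0.024 in the fit on Per1 (limma), lost without strain 23 or strain 40 (r = -0.37 and -0.39). In the fit on Tef at probe 1961 it was 0.19 (limma). Without the 4 arrays apart r was -0.23.

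The partners Npas2 and Clock had r = 0.43 (permutation p = 0.016), which did not pass over all probes (adjusted p = 0.32, limma) and was 0.26 without the 4 arrays apart. Arntl and its partner Clock had r = 0.04 (-0.21 without strain 31), and Arntl and Npas2 r = -0.30 (-0.21 without it). Arntl and its repressor Nr1d1 had r = -0.04, and 0.15 without strain 31. None of these 3 pairs passed either way. Dbp and Nr1d1, both known to peak when Arntl is low, had r = -0.03. Fits on Npas2, Clock and Cry1 called 0.234%, 0.0459% and 0.00459% of all probes, which are 51, 10 and 1 probes. These counts moved with the setting: the Clock fit called 615 without strain 31, 829 with the identifier correction, 3770 with a correction by neighbouring identifiers and 0 without the 4 arrays apart (1264 at an unadjusted p under 0.05, limma). The Npas2 fit called 228 with the identifier correction and 1 without the 4 arrays apart, and the Cry1 fit 869 with the neighbour correction. Fits on Per2, Per3, Nr1d1 and both Tef probes called 0 of 21764, with 539 (Nr1d1) to 3763 (Tef at probe 1961) at an unadjusted p under 0.05, and by Spearman's rho these also called 0. With the neighbour correction the Per2 fit called 240 and the Per3 fit 43. Cry1 and Per3 had r = 0.18 over all strains and 0.52 without the 4 arrays apart, the highest of all pairs there (adjusted p = 0.49, limma). Among the Per genes, r was -0.17 for Per1 and Per2, 0.06 for Per1 and Per3 and -0.28 for Per2 and Per3, and none passed.

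**Figure D4:**
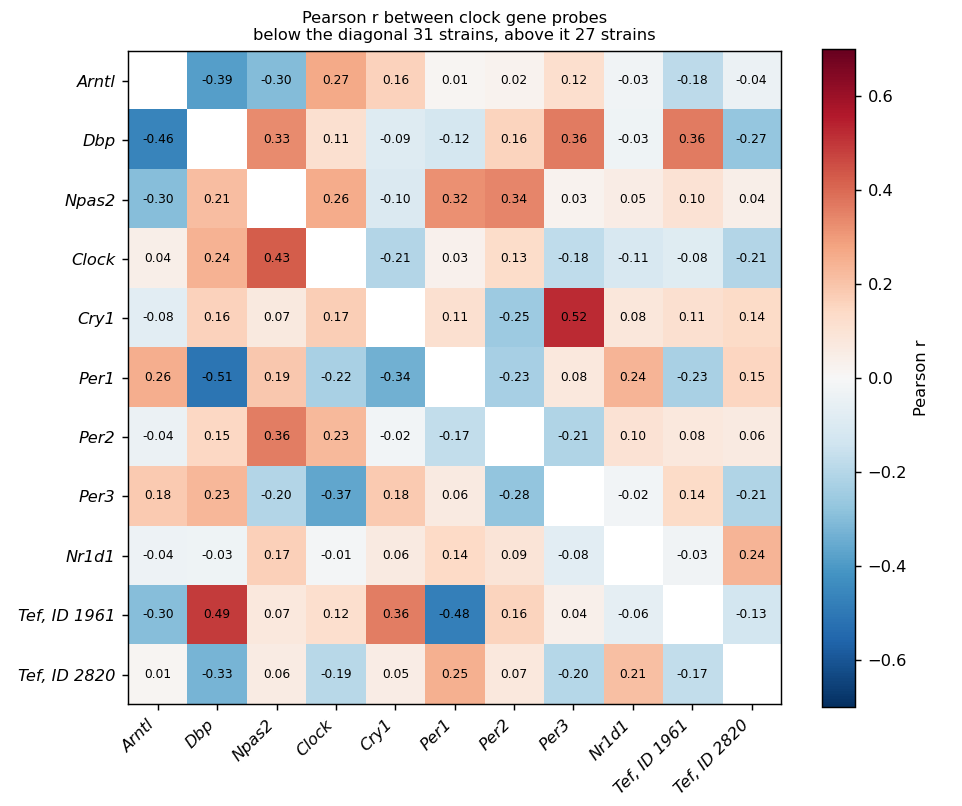
Pearson r between the 11 probes of the clock genes and Dbp, over 31 strains below the diagonal and over the 27 strains other than 23, 28, 40 and 42 above it; colour gives r from -0.7 to 0.7. Dbp with Per1 goes from -0.51 to -0.12 across the diagonal, Dbp with Arntl from -0.46 to -0.39 and Dbp with Tef at probe 1961 from 0.49 to 0.36.

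Many probes followed Dbp more closely than any clock gene did. By r over all strains, 2564 probes stood above Tef at probe 1961 and 2381 below Per1. The named genes nearest to Dbp were Zc3h13 (r = 0.90), Synpo (0.86), Atp6v1g1 (0.86), Wbp2nl (0.85) and Klk1b2-ps (0.85). The farthest were Eef1a1-ps1 (-0.84), Iqce (-0.84), Rbm39 (-0.83), Mrgprg (-0.82) and Psg17 (-0.81). Without the 4 arrays apart these 10 had r between 0.77 and 0.88 in size, with the same signs, and 9.51% of all probes were positive and 9.4% negative. With 3 principal components removed the Dbp fit called 0 probes (1937 at an unadjusted p under 0.05).

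The genes nearest to Arntl were Plp2 (r = 0.91), Gdap1 (0.84), Fzd9 (0.83), Adcyap1 (0.82) and Map2k4 (0.81), and the farthest were Tll1 (-0.84), an immunoglobulin kappa variable gene (-0.73), Adck1 (-0.70), Pnpla5 (-0.68) and Ghitm (-0.68). Strain 31 held the most extreme value of each of these 10 probes in the direction of r. Without it, r was 0.78 for Plp2 and -0.67 for Adck1, and between 0.34 and 0.53 in size for the other 8. Map2k4 lies 47 identifiers from the Arntl probe, and Fzd9 and Adcyap1 have neighbouring identifiers.

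**Figure D5:**
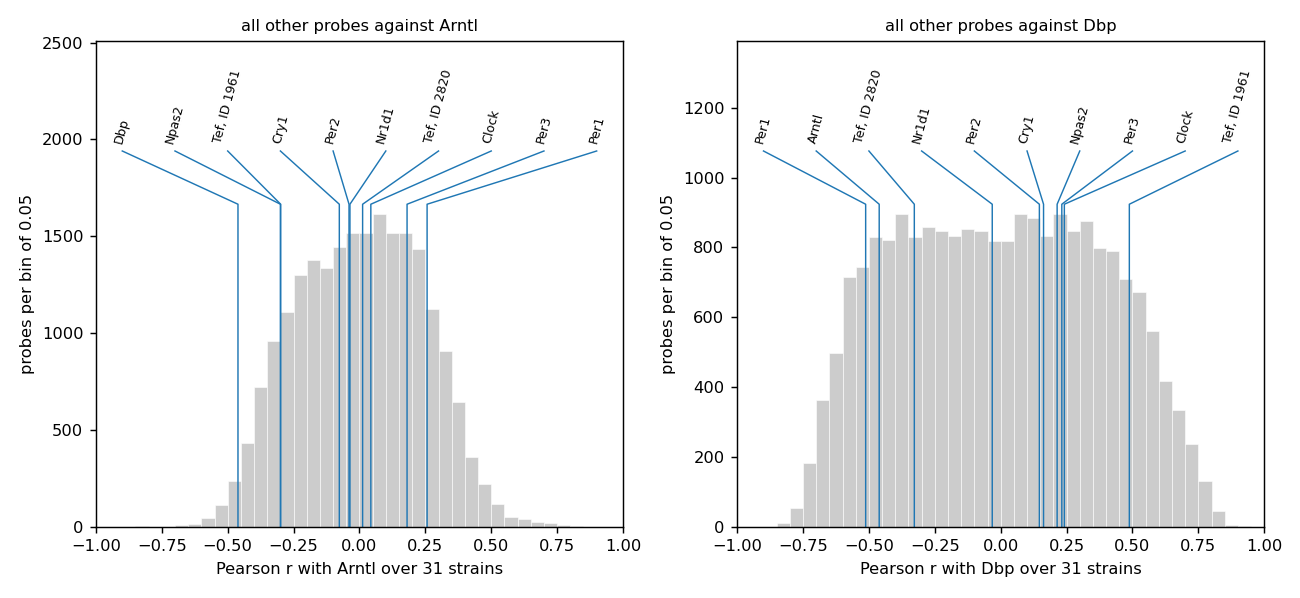
Number of probes (vertical axes, bins of 0.05) by Pearson r with Arntl (left) and with Dbp (right) over 31 strains; lines mark the other clock gene probes. Against Arntl, Dbp at -0.46 lies in the lower tail; against Dbp, where the distribution is broad, Per1 at -0.51 and Tef at probe 1961 at 0.49 lie inside it.

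Other genes of the clock were described by a list of 27 partners and kinases, of which 18 had 24 probes. In the fit on Dbp 2 of these 24 probes were positive and 6 negative, against 16.2% and 17.5% of all probes; the list's median r was 0.04, that of all probes -0.01. Negative were Fbxw11 (r = -0.59), a ubiquitin ligase subunit, Csnk1e (-0.57), a kinase of PER proteins, Cipc (-0.56), an inhibitor of CLOCK, Cry2 (-0.50) and 1 of 3 probes of the kinase Gsk3b (-0.49). Without the 4 arrays apart Cry2 was at -0.65, Fbxw11 at -0.65, Cipc at -0.60, Gsk3b at -0.51 and Csnk1e at -0.43. A second Fbxw11 probe was at -0.03 and the other Gsk3b probes at 0.21 and 0.27, so the probes of both genes disagreed. The other 3 called probes, named after their values were seen, were Bhlhe40, a repressor (-0.46, and -0.22 without the 4 arrays apart), Nr1d2, a relative of Nr1d1 (0.45, and 0.17), and Tipin, a partner of the Timeless protein (0.45, and 0.72). In the fit on Arntl none of the 24 probes passed (limma; lowest adjusted p = 0.18, with 3 at an unadjusted p under 0.05). Without strain 31, 1 was positive and 0 negative, against 4.64% and 6.02% of all probes. The positive probe was Csnk1e (r = 0.57 without strain 31, adjusted p = 0.020, limma, and r = 0.35 over all strains).

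Known rhythmic outputs of the liver clock were a list of 33 genes, 27 of them with 29 probes. Fitted on Dbp, 2 probes were positive and 2 negative, below the background shares, and the list's median r was 0.22. The positive ones were Acot1 (r = 0.57), an acyl-CoA thioesterase, and Cyp2a4 (0.42), a cytochrome P450. Negative were Aqp8 (-0.64), a water channel, and Tspan4 (-0.55), a tetraspanin. Acot1 was at 0.23 and Cyp2a4 at 0.36 without the 4 arrays apart, where Aqp8 was at -0.58 and Tspan4 at -0.54. Fitted on Arntl, none of the 29 passed (limma; lowest adjusted p = 0.30, with 3 at an unadjusted p under 0.05), and r ran from -0.35 to 0.41. Without strain 31, 2 were positive and 0 negative (limma), against 4.64% and 6.02% of all probes, and 9 had an unadjusted p under 0.05. The positive ones were Aqp8 (r = 0.57, adjusted p = 0.018, limma) and Tspan4 (r = 0.53, adjusted p = 0.041, limma), both negative with Dbp.

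Genes of the feeding and fasting response had 23 probes for 21 of 25 listed genes, and 4 were positive and 3 negative in the fit on Dbp. That is 30.4% of the probes, near the 33.7% of all probes called over all 31 strains. Cyp4a10 (r = 0.65), a fatty acid hydroxylase induced in fasting, Igfbp1 (0.55), an insulin-repressed secreted protein, and Fasn (0.54), the fatty acid synthase, were positive. Scd1 (-0.66), the stearoyl-CoA desaturase, and Acly (-0.59), which makes cytosolic acetyl-CoA, were negative. Fasn, Acly and Scd1 all serve fat synthesis, and their signs differed. Without the 4 arrays apart these were 0.68 for Cyp4a10, 0.47 for Igfbp1, 0.67 for Fasn, -0.70 for Scd1 and -0.65 for Acly. The remaining called probes, named after their values were seen, were Cyp4a14 (0.47, and 0.50 without the 4 arrays apart) and G6pc (-0.48, and -0.65). Of 11 glucocorticoid-induced genes measured, of 15 listed, 1 was positive (Sult1e1, a sulfotransferase, 0.49) and 3 negative (Errfi1, an inhibitor of EGF receptors, -0.66, Cdkn1a, a cell cycle inhibitor, -0.57, and Dusp1, a phosphatase, -0.47). Of the 14 probes of heat shock and temperature genes, 2 were positive and 4 negative. The chaperonin Hspd1 (0.60) and the co-chaperone Chordc1 (0.51) were positive, and Serpinh1 at 1 of 2 probes (-0.60), Hspb1 (-0.56) and Cirbp (-0.50), a cold-induced RNA-binding protein, were among the negative. The shares called were 36.4% for the glucocorticoid list and 42.9% for the heat shock list, against the same 33.7%. Without the 4 arrays apart, the Dbp fit called 34.8% of the feeding list, 45.5% of the glucocorticoid list and 28.6% of the heat shock list. The share of all probes was then 18.9%. With 3 principal components removed none of these probes passed in the fit on Dbp (2, 4 and 3 at an unadjusted p under 0.05, limma). None of these 3 lists had a probe past the threshold in the fit on Arntl over all 31 strains (limma), where 3, 3 and 5 probes had an unadjusted p under 0.05. Without strain 31, 1, 3 and 1 probes were positive and none negative, against 4.64% and 6.02% of all probes. These were Scd1 in the first list, Errfi1, Dusp1 and Klf9 in the second and Serpinh1 in the third. Without strains 23, 28, 40 and 42, 1 heat shock probe was negative in the fit on Arntl, where 40 of 21764 probes were negative.

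Markers of cell types were counted in the fit on Dbp over all 31 arrays, where 16.2% of all probes were positive and 17.5% negative. Of 11 probes of Kupffer cell and macrophage markers 1 was positive and 6 negative, with a median r of -0.44. Of 9 endothelial probes none was positive and 5 were negative, with a median of -0.46. Hepatocyte markers had 0 positive and 2 negative of 10 probes, cholangiocyte 2 and 0 of 5, lymphocyte 1 and 3 of 10, stellate cell and fibroblast 2 and 1 of 11, erythroid 2 and 1 of 4, adipose 2 and 0 of 6, and exocrine pancreas 1 and 2 of 9. Without strains 23, 28, 40 and 42, 9.51% of all probes were positive and 9.4% negative. The Kupffer list then had 0 called of 11 (4 at an unadjusted p under 0.05, limma) and a median r of 0.05. The endothelial list had 1 positive and 1 negative of 9 and a median of -0.33. With strain 31 also left out it had 1 positive and 4 negative. With the identifier correction added to leaving out the 4 strains, it had 1 and 3. Without the 4 strains the cholangiocyte list had 2 positive and 0 negative of 5. Its median r was 0.44, against 0.42 over all arrays and -0.08 with 3 principal components removed. Hepatocyte markers had 0 and 1 of 10 without the 4 strains, lymphocyte 0 and 2 of 10, and stellate cell and fibroblast 1 and 0 of 11. Erythroid markers had 1 and 1 of 4, adipose 1 and 0 of 6, and exocrine pancreas 0 and 2 of 9. The part of cell type makeup in the Dbp correlations was not tested, and in whole liver fewer cells of a type and less RNA per cell cannot be told apart.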

How the data were processed

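The authors deposited 1 normalized value per spot and array, a log2 ratio of strain over reference as read from the values; per the labels, whose protocols name the dyes and pools, ratios of 2 colours were measured, and per the submitters' processing notes limma and R 2.0.0 were used. The background correction, the normalization within and between arrays and the base of the logarithm are not stated in the sources used here. Of 23040 features, 1275 were empty on every array and 21765 had a value on all 31, of which 16642 were annotated with 1 gene; 15964 of these were named through RefSeq. Members and lists were chosen with earlier results of these data known.

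Panel means were tested with limma 3.58.1 (R 4.3.3) against 0, and each probe was fitted on each member probe in turn. P-values were 2-sided and adjusted by Benjamini and Hochberg over all probes, with a threshold of 0.05. Pearson's r and Spearman's rho had permutation p-values from 100000 permutations of strains (numpy 2.4.6). For Arntl and Dbp the 5 highest and 5 lowest r among named genes that were no members, and in each list other than cell type markers up to 5 probes past the threshold with the largest r in size, were named. Alternatives were a correction by identifier (the median of every 8th identifier on each array), leaving out strains, array weights, median and MAD scaling of each array, a null of 0.2 for means, removal of 3 principal components and Spearman's rho. Leaving out strain 31 and a correction by neighbouring identifiers (1, 23, 24 and 25 away) were chosen after seeing the data. The fits were tested on simulated data, in which noise was independent between probes. Variation shared between probes or arrays, as seen here, was not simulated, so false calls under it were not measured. The number of arrays limits the precision.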

Additional observations from a re-analysis of the deposited data

How the results depend on the processing

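With a mean beyond 0.2 required, 7229 probes in place of 16325 differed from the reference. The Npas2 mean turned from 0.00 to -0.13 with the identifier correction and strains 23, 28, 40 and 42 left out. For Arntl and Dbp in the fit on Arntl, where r = -0.46 did not pass, the pair passed by Spearman's rho (-0.62), without the 2 strains farthest from the Arntl median (-0.59) and without strain 31 (-0.62); leaving out 1 strain gave -0.62 to -0.42. In the fit on Dbp, where it passed, it was lost without strains 23, 28, 40 and 42 (-0.39), with the identifier correction added (-0.36), with array weights (-0.40) and with 3 principal components removed (-0.21); the single omissions span the same -0.62 to -0.42.

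Dbp with Per1 was lost without the 4 strains (-0.12), with the identifier correction added (-0.086), with array weights (-0.21), with 3 components removed (-0.013), by Spearman's rho (-0.25) and without those 4 and strain 31 (-0.15); single omissions gave -0.58 to -0.41. Dbp with Tef at probe 1961 was lost in the same order at 0.36, 0.39, 0.39, 0.37, 0.38 and 0.35, without the 2 farthest strains (0.45) and with the neighbour correction (0.37); single omissions gave 0.42 to 0.55. Per1 with Tef at probe 1961 was lost in the same order at -0.23, -0.22, -0.30, -0.20, -0.34 and -0.25, and without the 2 farthest strains (-0.19); single omissions gave -0.56 to -0.37. With the neighbour correction, 9 pairs passed with either probe as predictor. They included Dbp with Clock (r = 0.52, and 0.24 without the correction) and Dbp with Per2 (0.51, and 0.15). Dbp with Tef at probe 2820 (-0.44, and -0.33) and Clock with Per3 (-0.46, and -0.37) passed too. So did Per1 with Tef at probe 2820 (0.46, and 0.25) and Npas2 with Per1 (0.49, and 0.19). None of these named pairs passed over all strains without the correction.

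The 137 probes that correlated with Arntl became 878 by Spearman's rho, 12 with the neighbour correction, 2321 without strain 31 and 0 without strains 23, 28, 31, 40 and 42 (3377 at an unadjusted p under 0.05); single omissions gave 112 to 2321. The 7327 that correlated with Dbp became 4114 without the 4 strains, 4102 with the identifier correction added, 4168 with array weights, 0 with 3 components removed and 4036 without the 4 and strain 31. The 8 clock partner probes that followed Dbp became 5 without the 4 strains, with or without the identifier correction or strain 31, 5 with the neighbour correction, 4 by Spearman's rho and 0 with 3 components removed, and the 4 clock output probes became 7 with the neighbour correction, 6 with the identifier correction and 0 with 3 components removed. With Arntl, where none passed, 1 clock partner probe passed by Spearman's rho and 1 without strain 31, and 2 clock output probes without strain 31. Array scaling applies to means, counts and spreads only. The sorted values of all arrays were already the same to within 0.000256, so scaling could change little and is no separate check. The cause of these changes was not tested.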
